A study of Mus musculus with 6 samples.

Results

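Cyp1a1 and Cyp1b1 are the cytochrome P450 genes of family 1 found among 149 genes that were deposited as changed in a mouse study of heart ischaemia-reperfusion. They were chosen by their symbols from that list, so they are 2 of its 149 genes. All 149 had been selected by the authors on the same difference that is described here. The authors' limits were an adjusted p-value (FDR) under 0.05 and at least a 2-fold change. The values of both genes between the groups are therefore given as a description, without a test of their own.

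Male wild-type C57BL/6 mice had the left anterior descending coronary artery tied for 45 min and then reopened for 24 h of reperfusion. In the IR group (3 libraries) this was the only treatment. The TMAO+IR group (3 libraries) also had 0.12% trimethylamine N-oxide (TMAO) in the drinking water for 4 weeks before the operation and throughout it. TMAO is an oxidised amine that the liver makes from trimethylamine, a product of gut bacteria. Poly(A) RNA came from the ischaemic-reperfused region of the heart, so each library mixes muscle, vessel, connective tissue and blood-derived cells, and fewer cells of a type cannot be told apart from less RNA per cell. Both groups had ischaemia-reperfusion, and hearts without it, or with TMAO alone, were not analysed here. The libraries held between 18370997 and 22442237 fragments, as recovered from the ratio of counts to FPKM. FPKM is the number of fragments per kilobase of transcript, scaled to the library size. CPM is the count scaled in the same way but not by length.

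Cyp1a1 and Cyp1b1 encode monooxygenases of the endoplasmic reticulum that oxidise aromatic hydrocarbons, and also oestrogens, retinoids and fatty acids such as arachidonic acid. Both are classic targets of the aryl hydrocarbon receptor. This receptor waits in the cytosol in a complex with the chaperone HSP90, is activated by ligands such as dioxins and tryptophan products, and then pairs with ARNT in the nucleus to bind DNA at sites with the core GCGTG. In most tissues Cyp1a1 is nearly silent without a ligand and is strongly inducible, while Cyp1b1 has a basal level in mesenchymal and vascular cells.

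The promoters are shown first because both genes share this regulator. The sequences are the 250 bases before the RefSeq transcription start (GRCm38.p6), written along the gene's own strand, with the GCGTG core or its reverse complement CACGC in capitals. For Cyp1a1 the window is chr9:57697363-57697612 on the plus strand, and for Cyp1b1 it is chr17:79715062-79715311 on the minus strand.
Cyp1a1: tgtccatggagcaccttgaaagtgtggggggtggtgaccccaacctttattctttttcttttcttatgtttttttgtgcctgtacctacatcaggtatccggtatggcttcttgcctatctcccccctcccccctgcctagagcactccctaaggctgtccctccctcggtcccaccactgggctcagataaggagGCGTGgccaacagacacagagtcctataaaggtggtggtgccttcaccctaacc
Cyp1b1: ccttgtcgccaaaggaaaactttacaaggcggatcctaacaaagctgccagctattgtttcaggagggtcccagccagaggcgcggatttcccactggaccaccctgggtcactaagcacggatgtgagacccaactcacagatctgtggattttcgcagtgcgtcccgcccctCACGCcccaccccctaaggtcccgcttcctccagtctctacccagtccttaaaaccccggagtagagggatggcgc
Each window held 1 core. In Cyp1a1 it lay 54 to 50 bases before the start on the gene's strand, and in Cyp1b1 76 to 72 bases before the start on the opposite strand. Searched on both strands, the core occurred in 28.2% of all 32851 promoter windows of the same length and in 36.0% of the 139 windows that belong to listed genes, so finding it in a window is common. The longer form TNGCGTG, which stood in 4.10% of all windows, was in neither. The TATA box letters TATAAA began 30 bases before the start of Cyp1a1, were not found in the Cyp1b1 window, and occurred in 12.4% of all windows on either strand. GC content was 53.6% for Cyp1a1 and 58.0% for Cyp1b1, against a median of 52.4%. These are matches of letters in a short window, and binding was not measured. Sequence further upstream was not searched, so the absence of TNGCGTG holds for these 250 bases only.

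Cyp1a1 (ENSMUSG00000032315) lies on the plus strand of chromosome 9 from 57687928 to 57703824 in GRCm38, with 2 annotated transcripts. The printed window belongs to the shorter gene model, whose transcript is 2621 bp. The longer transcript of 2697 bp starts further upstream. Cyp1a2, the third member of the family, is a neighbour on the opposite strand with a gap of 4224 bp between the gene bodies. It is not among the 149 genes and was not analysed here. Cyp1b1 (ENSMUSG00000024087) lies on the minus strand of chromosome 17 from 79701537 to 79715061, with 3 annotated transcripts.

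Cyp1a1 was close to silent in IR and clearly present in every TMAO+IR library. Its level was 1.16, 0.82 and 0.60 FPKM in IR replicates 1, 2 and 3. In TMAO+IR replicates 1, 2 and 3 it was 9.58, 13.25 and 9.74 FPKM. The groups did not overlap, and the lowest TMAO+IR library stood 8.26-fold above the highest IR library in CPM. The means were 0.86 ± 0.28 FPKM in IR and 10.9 ± 2.07 FPKM in TMAO+IR (SD, n = 3 each). In counts scaled by library size the ratio of the means was 12.7-fold, a log2 fold change of 3.66. The mean of the log2 values differed by 3.70 between the groups, with a standard error of 0.32 from the spread of the libraries. The extremes were 22.3-fold apart, from IR replicate 3 to TMAO+IR replicate 2.

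The IR values of Cyp1a1 rest on few reads. The counts were 63, 47 and 35 in IR against 462, 748 and 532 in TMAO+IR. The exact 95% Poisson interval of the lowest count was 24.4 to 48.7 and that of the highest IR count was 48.4 to 80.6. As raw counts these intervals only just meet. The lowest count came from the larger library, with 22442237 fragments in IR replicate 3 against 20681799 in IR replicate 1. Scaling by library size therefore moves the intervals apart. Counting error alone was 12.6% to 16.9% of each IR count, beside a coefficient of variation of 33.3% between the IR libraries. In TMAO+IR it was 3.66% to 4.65%, beside 19.0%. These intervals cover counting error only, since reads copied by PCR are not independent molecules.

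Cyp1b1 was already expressed in IR and was about 2-fold higher in TMAO+IR. Its level was 4.08, 5.67 and 2.63 FPKM in IR replicates 1, 2 and 3, and 8.54, 9.10 and 7.14 FPKM in TMAO+IR replicates 1, 2 and 3. The groups did not overlap here either, but the gap was small, with the lowest TMAO+IR library 1.25-fold above the highest IR library in CPM. The means were 4.13 ± 1.52 FPKM in IR and 8.26 ± 1.01 FPKM in TMAO+IR (SD, n = 3 each). In scaled counts the ratio of means was 2.01-fold, a log2 fold change of 1.004. The mean of the log2 values differed by 1.07 between the groups, with a standard error of 0.36. The counts were 358, 531 and 241 in IR and 660, 831 and 628 in TMAO+IR.

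For Cyp1b1 the reads were sufficient and the spread lay between the libraries. Counting error was 4.34% to 6.44% of each IR count, beside a coefficient of variation of 38.5%. The highest and the lowest IR library differed 2.25-fold, which is more than the 2.01-fold ratio of the group means. The TMAO+IR libraries lay closer together, within 1.28-fold. For Cyp1a1 the corresponding spans were 1.95-fold in IR and 1.38-fold in TMAO+IR. The median coefficient of variation over the 149 listed genes was 29.8% in IR and 21.2% in TMAO+IR, so both genes varied more than the median in IR and less in TMAO+IR. Cyp1b1, at 12.4% in TMAO+IR, ranked 121st of 149 by this measure.

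**Figure D1:**
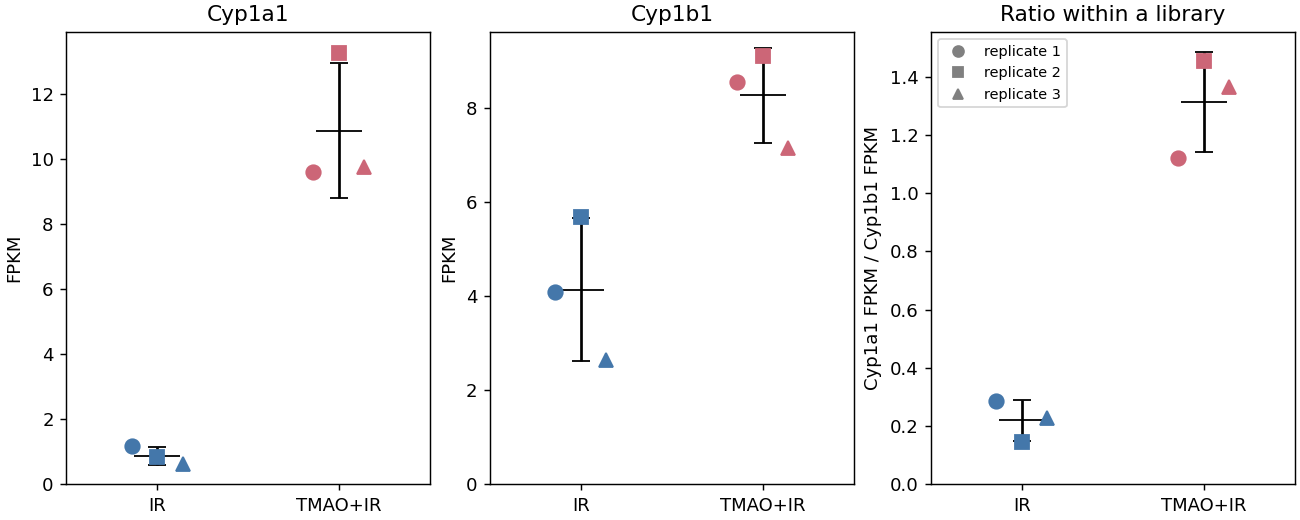
Level of Cyp1a1 and Cyp1b1 in FPKM, and their ratio, in the 3 IR and 3 TMAO+IR libraries. Symbols mark replicates, and the bar with whiskers is the mean ± SD. Cyp1a1 lies between 0.60 and 1.16 FPKM in IR and between 9.58 and 13.25 in TMAO+IR, whereas the Cyp1b1 groups are separated by a narrow gap.

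Both genes were higher in every TMAO+IR library than in any IR library. This holds for 80.5% of the 149 listed genes and, counting either direction, for 97.3%, so it does not set the pair apart. Being on the list (100% of the 149) and being higher (81.9%) are likewise fixed by the authors' selection or common within it. What differs between the genes is their place in the list. In the authors' deposited table Cyp1a1 had a log2 fold change of 3.66 and the lowest FDR of all, 5.47e-40, with the next lowest at 6.09e-09. Its fold change was the third largest. The genes above it, Gm4737 and Eno1b, had mean levels under 1 FPKM in both groups.

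Cyp1b1 stood at the other end. Its log2 fold change of 1.0012 in the authors' deposited table was the smallest in absolute size of the 149 genes, just inside the limit of 1, and the next was Rbp7 at 1.0027. In scaled counts Cyp1b1 ranked 137th of 149 by absolute log2 fold change, and Cyp1a1 the fourth. Genes just outside the limit were not analysed here. The FDR of Cyp1b1 was 0.0093 in the authors' deposited table, the 75th lowest of 149. The median log2 fold change in that table was 1.17 over the whole list and 1.22 over the 122 higher genes.

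**Figure D2:**
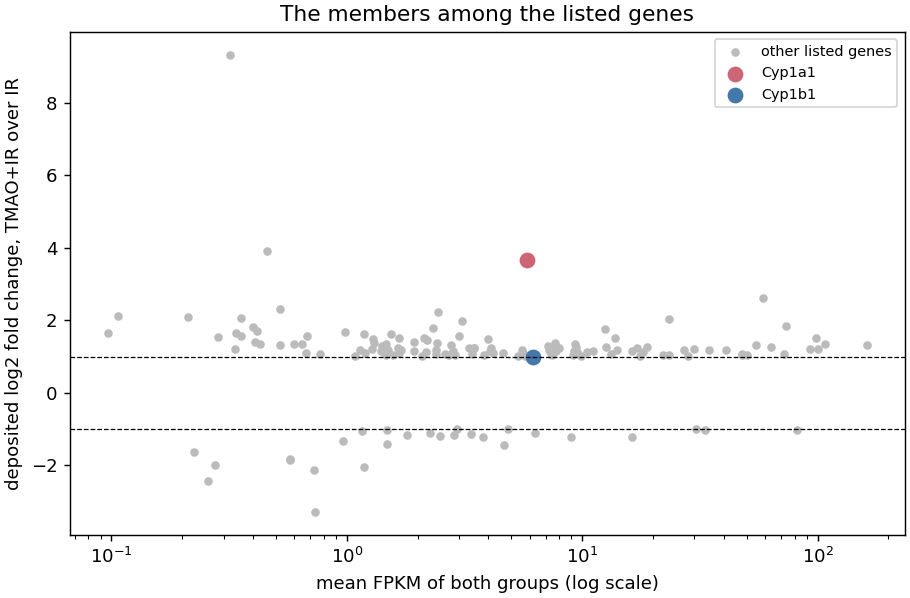
Log2 fold change in the authors' deposited table against the mean FPKM of both groups (log scale) for 149 genes, with Cyp1a1 and Cyp1b1 in colour. Dashed lines mark the fold limit of the list at -1 and 1. Cyp1a1 at 3.66 stands far above the genes of similar level, and Cyp1b1 lies on the limit.

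The balance of the pair changed between the groups. The ratio of Cyp1a1 to Cyp1b1 within a library does not depend on the library size. In FPKM it was 0.284, 0.145 and 0.228 in IR replicates 1, 2 and 3. In TMAO+IR replicates 1, 2 and 3 it was 1.12, 1.46 and 1.36. Cyp1b1 was thus the more abundant transcript per length in each IR library and Cyp1a1 in each TMAO+IR library. The mean ratio was 0.219 ± 0.070 in IR and 1.31 ± 0.17 in TMAO+IR (SD, n = 3 each). Cyp1a1 made up 12.6% to 22.1% of the summed FPKM of the pair in IR and 52.9% to 59.3% in TMAO+IR. The sum of both genes went from 4.99 ± 1.64 to 19.1 ± 2.87 FPKM, a 3.83-fold difference to which Cyp1a1 contributed most. On the log2 scale the fold changes of the genes differed by 2.66, which is 6.32-fold.

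The place of the genes among the listed ones by level was also compared. By FPKM, Cyp1a1 ranked 98th, 119th and 115th of 149 in IR replicates 1, 2 and 3, and 51st, 44th and 44th in TMAO+IR. Cyp1b1 ranked 56th, 56th and 61st in IR and 56th, 52nd and 53rd in TMAO+IR. Every TMAO+IR rank of Cyp1a1 was above its IR ranks, while the ranks of Cyp1b1 overlapped between the groups.

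The transcript length implied by count, FPKM and library size was checked for a shift between isoforms. For Cyp1a1 it was 2599 to 2626 bp over the 6 libraries, near the annotated 2621 bp. For Cyp1b1 it was 4083 to 4259 bp in IR and 4207 to 4241 bp in TMAO+IR, between the annotated transcripts of 3398 and 5128 bp. The ranges of the groups overlapped, so counts and FPKM give Cyp1b1 nearly the same fold change.

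The order of the libraries also differed between the genes. Cyp1b1 was highest in IR replicate 2 and lowest in IR replicate 3 within its group, an order shown by 59 of the 122 higher genes. Cyp1a1 was highest in IR replicate 1 and lowest in IR replicate 3, an order shown by 22 of the 122. Within TMAO+IR, both genes were highest in replicate 2, which held the highest value of 65 of the 122. The fragments of all listed genes made up 0.354%, 0.505% and 0.330% of the library in IR replicates 1, 2 and 3, and 0.944%, 1.08% and 0.678% in TMAO+IR. Cyp1b1 was among the 27 of the 149 genes that followed this order over all 6 libraries, and Cyp1a1 was not. The order places all TMAO+IR libraries above all IR libraries, which held for 80.5% of the listed genes. The part of this shared library order in the Cyp1b1 difference was not tested.

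The listed genes closest to each member were found by the root mean square difference over the 6 libraries, in log2 CPM centred on each gene's mean. This distance includes the step between the groups, on which all listed genes were selected, so it partly restates the fold change. For Cyp1b1 they were Atp8b1 (0.080), Sema6d (0.082), Adamts4 (0.100), Rps6ka3 (0.104) and Btaf1 (0.119), against a median of 0.363 over the other 148 listed genes. Atp8b1 encodes a phospholipid flippase, Sema6d a semaphorin, Adamts4 a protease that cuts aggrecan, Rps6ka3 a ribosomal S6 kinase and Btaf1 a regulator of the TATA-binding protein. All 5 had their IR minimum in replicate 3 and their IR maximum in replicate 2, like Cyp1b1. They were picked for closeness over these same libraries, so the shared order largely follows from the selection. Sema6d, for instance, was at 7.34, 8.41 and 3.94 FPKM in IR and 14.09, 14.49 and 11.23 FPKM in TMAO+IR. Adamts4 was at 17.52, 25.99 and 12.09 FPKM in IR and 41.64, 42.82 and 28.45 FPKM in TMAO+IR.

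No listed gene was similarly close to Cyp1a1, whose large step between the groups enters this distance. The nearest were the predicted gene Gm10260 (0.819), Plcxd2 (0.858), Myh7 (0.870), Hsph1 (0.952) and Ifi213 (0.954), against a median of 1.32. Cyp1b1 stood 91st, at 1.34. Gm10260 had 9, 11 and 10 counts in IR and 48, 44 and 44 in TMAO+IR. Plcxd2 and Ifi213 also rest on few counts, at most 9 in any IR library. Myh7, the beta cardiac myosin heavy chain, was at 12.52, 8.90 and 6.29 FPKM in IR and 27.54, 29.31 and 56.46 in TMAO+IR. Unlike Cyp1a1, it was highest in TMAO+IR replicate 3.

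**Figure D3:**
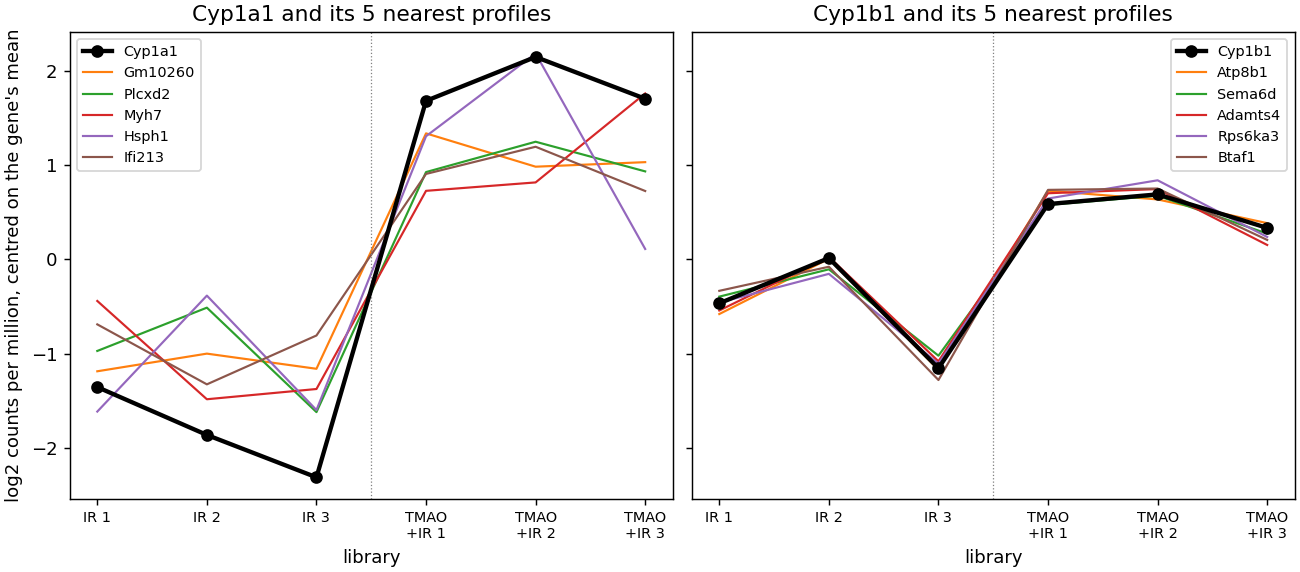
Log2 CPM (after adding 0.5 counts), centred on each gene's mean, in the 6 libraries for Cyp1a1 (left), Cyp1b1 (right) and the 5 listed genes closest to each. The lines of Cyp1b1 and its neighbours nearly coincide (differences of 0.080 to 0.119), while Cyp1a1 has a larger step between the groups than its neighbours (0.819 to 0.954).

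Of a list of 30 genes known as targets of the aryl hydrocarbon receptor or reported to respond to it, 4 were among the 149 genes, and 2 of these are the pair itself. For comparison, the deposited FDR of Cyp1a1, divided by its p-value, implies that the authors tested about 12721 genes, of which the 149 listed are 1.17%. The pair was chosen from the 149, and the 30 genes were drawn up with earlier results of these data known. The count of 4 is therefore no test of enrichment. All 4 were higher in TMAO+IR, as were 81.9% of the listed genes. Besides the pair they were Ptgs2 and Il6, which many inflammatory signals also induce. Ptgs2, which encodes cyclooxygenase 2, was at 5.31, 6.82 and 2.15 FPKM in IR and 12.03, 12.63 and 8.78 FPKM in TMAO+IR (2.34-fold in scaled counts). The cytokine gene Il6 was at 23.86, 21.34 and 18.69 FPKM in IR and 51.43, 49.61 and 42.98 FPKM in TMAO+IR (2.18-fold). Their FDR in the authors' deposited table was 0.00895 and 6.22e-07. The median log2 fold change of these 4 genes in scaled counts was 1.18, against 1.16 over all 149. The other 26 genes, among them the receptor's repressor Ahrr, Tiparp and Nqo1, are not among the 149 and were not analysed here. Absence from the list does not show an equal level in both groups.

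Of 20 genes for the receptor, its partners, chaperones and coregulators, only Hsp90aa1 was listed. It encodes the inducible form of HSP90, the chaperone of the receptor complex. It was at 22.96, 45.77 and 27.18 FPKM in IR and 129.61, 163.89 and 50.60 FPKM in TMAO+IR, and the authors' deposited table gives it an FDR of 0.000164. TMAO+IR replicate 3 was near the highest IR library for Hsp90aa1, while its Cyp1a1 level of 9.74 FPKM was near the 9.58 FPKM of replicate 1. TMAO+IR replicate 3 is 1 library, and the part of Hsp90aa1 in the Cyp1a1 difference was not tested. Ahr and Arnt themselves were not analysed here. Of 20 Nrf2 and phase II detoxification genes, 1 was listed, the cystine transporter gene Slc7a11, with 0.39, 0.37 and 0.13 FPKM in IR and 0.58, 0.71 and 0.93 FPKM in TMAO+IR. None of the 14 genes of ligand formation and tryptophan metabolism was listed, and none of the 16 hypoxia genes, whose factors share ARNT. With 1.17% of the tested genes listed, 0 or 1 listed gene in lists of this size is near the background. No further cytochrome P450 gene of any family was listed.

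The annotation deposited with the table gave the pair 5 shared KEGG pathways. No other listed gene was annotated to 3 of them, namely metabolism of xenobiotics by cytochrome P450, steroid hormone biosynthesis and tryptophan metabolism. Ptgs2 was the only other listed gene in the remaining ones, chemical carcinogenesis and ovarian steroidogenesis. Among Gene Ontology functions all 9 terms of Cyp1b1 were also given to Cyp1a1, which had 19. Of the processes 9 were shared, out of 49 for Cyp1a1 and 41 for Cyp1b1. Annotation to the nucleus and to angiogenesis was given to Cyp1b1 and not to Cyp1a1.

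Cell type markers give a limited view, since 7 of 81 markers in 9 lists were among the 149 genes (1.17% of all tested genes were listed). The lists were drawn up with earlier results of these data known, so this share is no test of enrichment. Of these 7, 6 were higher, where 81.9% of all listed genes were. The endothelial marker Ackr1, 1 of 12, was at 0.80 to 0.88 FPKM in IR and 1.83 to 2.58 in TMAO+IR. The fibroblast marker Tnc, 1 of 10, was at 1.21 to 2.32 and 2.96 to 4.90 FPKM. Myh7 was the only listed one of 11 cardiomyocyte markers, so the labelled tissue could not be checked further. The summed level of the monocyte and macrophage markers Ccr2 and Chil3, 2 of 10, was 1.06 to 1.83 FPKM in IR and 2.77 to 6.11 in TMAO+IR. The neutrophil marker Mmp8, 1 of 10, was at 3.53 to 6.75 and 8.89 to 11.66 FPKM. The erythrocyte marker Slc4a1, 1 of 6, was lower in TMAO+IR, at 0.23 to 0.49 FPKM in IR and 0.08 to 0.16 in TMAO+IR. Smooth muscle, lung epithelium and liver lists had no listed marker. The part of these cell types in the difference of Cyp1a1 and Cyp1b1 was not tested.

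Leaving out 1 library at a time kept Cyp1a1 between 11.0-fold and 15.4-fold. For Cyp1b1 the same gave 1.68-fold to 2.49-fold, with the lowest value without IR replicate 3 and the highest without IR replicate 2. Its log2 value lay under the list's limit of 1 in 3 of these 6 cases, at 0.75 when IR replicate 3 was left out, 0.93 for TMAO+IR replicate 2 and 0.98 for TMAO+IR replicate 1. With TMM scaling computed within the listed genes, the log2 fold change was 2.62 for Cyp1a1 and 0.00 for Cyp1b1. That scaling assumes that most genes of the table are equal, which a list chosen for its changes cannot meet, and it lowered the median of the list by 1.03.

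**Figure D4:**
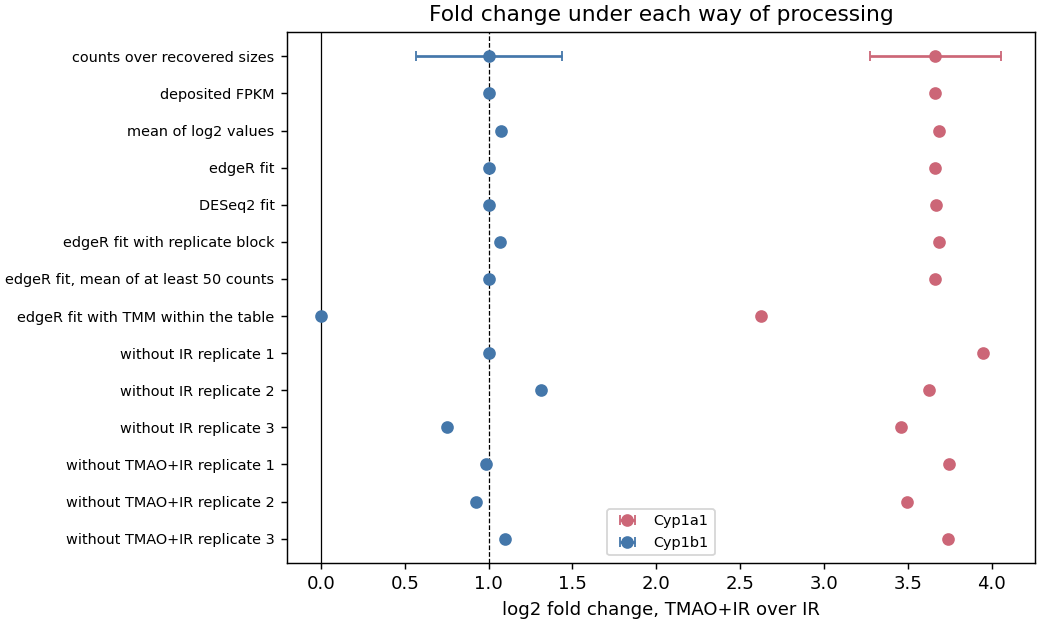
Log2 fold change of Cyp1a1 and Cyp1b1 under each way of processing, with the pooled SD between libraries drawn for the counts over recovered sizes. The dashed line marks the list's limit of 1. Cyp1a1 stays between 2.62 and 3.95, and Cyp1b1 lies between 0.00 and 1.31.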

How the data were processed

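Per the submitters' processing notes, the GRCm38 build was used with StringTie 1.3.1, HISAT2, Bowtie2 2.2.8 and fastp 0.18.0, and with edgeR and DESeq2, in roles that are not stated. The authors deposited unnormalized whole-number counts for each gene in each library, FPKM values to 2 decimals, the log2 ratio of the group means of FPKM, and p-values with an FDR, for 149 genes. No source used here names the tool behind these p-values. Columns with the prefix T-IR were matched to TMAO+IR. The labels number the libraries without naming animals, so the spread between them may be technical.

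Library sizes were recovered from count over FPKM in the 86 genes that reached 1 FPKM in all libraries. Their absolute scale was set by the 12 with a single transcript in GENCODE M21, to which all 149 identifiers matched. Levels are FPKM or CPM, counts scaled by the recovered size. Fold changes are ratios of group means, TMAO+IR over IR. Standard errors come from the log2 values of the libraries and belong to the difference of their group means. Fits with edgeR 4.0.16 and DESeq2 1.42.0 over the table gave fold changes only. Size recovery and the edgeR fit without replicate block or TMM were tested on simulated data, and the other fits were not. Overlapping genes and near-identical copies are uncertain, as their counting is not described. The genes named were the pair, listed members of 15 gene lists, and the 5 nearest profiles of each member. Members and lists were chosen with earlier results of these data known. Promoters came from RefSeq (GRCm38.p6), with 109 of 149 symbols matched.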

Additional observations from a re-analysis of the deposited data

How the results depend on the processing

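Apart from TMM scaling within the list, the other settings moved the log2 fold changes by less than the SD between libraries. They were FPKM, the mean of log2 values, edgeR, DESeq2, a mean of at least 50 counts, the replicate block and leaving out 1 library. TMM gave 2.62 for Cyp1a1 (3.66 otherwise) and 0.0019 for Cyp1b1 (1.004 otherwise). Without 1 library the log2 values ran from 3.46 to 3.95 for Cyp1a1, from 0.75 to 1.31 for Cyp1b1, and from 2.31 to 2.95 for the change in their ratio, which was 2.66 with all libraries. With the replicate block they were 3.69, 1.07 and 2.62. Deviations from the group means correlated at -0.32, 0.33 and -0.08 between libraries of the same number (117 genes), and 2 of 6 libraries matched best with their own number, so the numbers were not taken as pairs. Of the 5 nearest profiles, between 3 and 5 recurred for Cyp1a1 and 3 or 4 for Cyp1b1 over the 7 alternatives. Gm10260 recurred in all 7 for Cyp1a1, and Atp8b1 and Sema6d in all 7 for Cyp1b1. Depth limits Cyp1a1 in IR, where counts were 35 to 63.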
